A study of Mus musculus with 8 samples.

Results

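The fetal and stress gene programme is a set of genes that the heart muscle uses before birth and takes up again under load. It was followed here through 8 genes, taken by name out of the 39056 genes in the deposited count table: the natriuretic peptide genes Nppa and Nppb, the myosin heavy chain genes Myh6, Myh7 and Myh7b, the skeletal actin gene Acta1, the stretch-responsive gene Ankrd1 and the calcineurin regulator Rcan1. Of these, Myh6 is the adult counterpart of Myh7 rather than a gene taken up again under load. RNA came from hearts of 4 male HVCN1 null mice (genotype label Hv1 null) and 4 male WT mice, all 3 months old. WT mice were of the C57BL/6 background, HVCN1 null mice were studied as HVCN1-/- mice of like age, and the construction of the null allele is not given in the sources used here. HVCN1 is a voltage-gated proton channel that lets acid leave cells, and the study asked how its loss changes the heart transcriptome. The hearts are numbered as in the labels, 1 to 4 for HVCN1 null and 5 to 8 for WT, with 1 library per heart, and nothing in the labels gives a batch.

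In the adult mouse ventricle the fast motor protein alpha-myosin (Myh6) carries contraction, while beta-myosin (Myh7), the slow fetal form, is kept low. Load, injury or lack of thyroid hormone moves the balance towards Myh7, and Nppa, Nppb and Acta1 commonly rise in the same settings. Nppa is also made at a high level in healthy atria, so its level in a piece of heart tissue moves with how much atrium the piece holds, and in bulk tissue fewer cells of a type and less RNA per cell cannot be told apart.

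The 3 myosin genes also carry a family of microRNAs within their introns, which ties the genes of the set together by sequence. Each lies on the strand of its host and overlaps no annotated exon of it. Their mature forms are shown because the seed, bases 2 to 8, in capitals below, groups them.
mmu-miR-208a-3p, in Myh6, hairpin at chr14:54949060-54949142: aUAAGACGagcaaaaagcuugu
mmu-miR-208b-3p, in Myh7, hairpin at chr14:54975700-54975776: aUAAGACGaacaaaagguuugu
mmu-miR-499-5p, in Myh7b, hairpin at chr2:155622880-155622958: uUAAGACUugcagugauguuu
The microRNAs of Myh6 and Myh7 share the seed UAAGACG, and that of Myh7b has UAAGACU. Sequences and positions are from RefSeq on GRCm38.p6. The libraries were made from poly-A RNA, and the microRNAs themselves were not analysed here.

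The promoters of 4 of the genes are shown for 2 short motifs that are well known in heart and muscle genes. These are the MCAT motif bound by TEAD factors (CATTCC, or GGAATG on the other strand) and a site of the GATA type (AGATAA or TGATAA, or TTATCT or TTATCA on the other strand), which do not overlap one another in these windows. Each sequence is the 250 bases before a RefSeq start site, with matches in capitals. Nppa is shown because it followed atrial genes, and Nppb, Acta1 and Myh7 because their levels varied most among the other genes.
Nppa promoter, chr4:148000472-148000721, plus strand: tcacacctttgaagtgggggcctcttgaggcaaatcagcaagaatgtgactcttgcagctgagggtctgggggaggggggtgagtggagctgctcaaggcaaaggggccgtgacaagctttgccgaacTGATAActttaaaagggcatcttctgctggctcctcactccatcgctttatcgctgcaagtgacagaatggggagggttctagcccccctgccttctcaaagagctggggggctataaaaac
Nppb promoter, chr4:147985650-147985899, plus strand: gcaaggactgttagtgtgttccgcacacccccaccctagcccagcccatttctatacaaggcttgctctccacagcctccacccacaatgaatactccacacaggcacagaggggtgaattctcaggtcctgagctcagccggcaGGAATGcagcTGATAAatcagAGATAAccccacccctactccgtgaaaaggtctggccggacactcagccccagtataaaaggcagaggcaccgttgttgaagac
Acta1 promoter, chr8:123894776-123895025, minus strand: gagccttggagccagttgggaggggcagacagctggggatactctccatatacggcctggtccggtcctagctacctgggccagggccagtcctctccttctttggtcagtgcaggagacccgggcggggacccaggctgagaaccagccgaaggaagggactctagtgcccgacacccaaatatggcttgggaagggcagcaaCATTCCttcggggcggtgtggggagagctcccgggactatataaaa
Myh7 promoter, chr14:54994627-54994876, minus strand: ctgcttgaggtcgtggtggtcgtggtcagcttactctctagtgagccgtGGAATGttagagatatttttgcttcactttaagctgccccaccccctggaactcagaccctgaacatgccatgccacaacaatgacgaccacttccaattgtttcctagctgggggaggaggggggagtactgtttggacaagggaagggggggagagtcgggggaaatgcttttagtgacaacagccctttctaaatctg
Counted over the full windows, from 250 bases before to 50 bases after the start, 5 of the 8 genes had an MCAT match (Nppb, Myh6, Myh7, Acta1 and Ankrd1) and 4 a GATA match (Nppa, Nppb, Myh7b and Ankrd1). Of all 32851 promoters of the same length, 14.7% held the MCAT letters and 18.6% the GATA letters. The window of the other Myh7 start site, which lies downstream, held neither. Myh7 and Rcan1 were searched in 2 windows each, and the matches describe the letters only.

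Gene positions below are those of GENCODE M21 on GRCm38. Counts of the targeted gene matched the genotype labels. Hvcn1 gave 6, 6, 1 and 3 counts in null hearts 1 to 4, against 102, 49, 99 and 68 counts in the WT hearts numbered 5 to 8, although the treatment field of all 8 samples names the knockout. Total counts ran from 25851255 to 38874640 per heart. Cardiomyocyte marker genes (Tnnt2, Tnni3, Actn2, Ryr2, Tnnc1, Mybpc3 and Ttn) summed to 21293 to 27389 CPM (counts per 1000000 counts, after scaling of the library sizes), as a check of the tissue label. A gene counted as differentially expressed (a DEG) where edgeR's quasi-likelihood test gave it an adjusted p (Benjamini-Hochberg) below 0.05, and all 8 genes passed the filter on low counts. Fold changes are on the log2 scale with WT as the base, so genes lower in HVCN1 null hearts have negative values.

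None of the 8 fetal and stress genes was called (0 of 8), against 1.14% of the 14796 genes tested, where 110 genes were higher and 59 lower in HVCN1 null hearts. None reached an unadjusted p under 0.05 in the same edgeR test either, the lowest being 0.153 for Nppb. Of all 14796 genes tested, 1625 did, so few or none of 8 genes would do so at that share. DESeq2 and limma voom also called 0 of the 8, with 466 and 147 calls over the same 14796 genes against 169 with edgeR. Without WT heart 6 edgeR called 71 of 15075 genes. The point estimates lay below 0 for 7 of the 8 genes, but for 6 with RLE scaling of the library sizes and for 4 without scaling (the smallest estimates turned sign). Myh6, the adult form, was among these 7 at -0.01, so the count does not describe fetal forms alone. The median log2 fold change was -0.18 beside -0.01 over all genes tested, and the 2 groups overlapped for each of the 8 genes. Overlap was not counted over all genes tested, so no background share stands beside this count. The width of the intervals differed greatly between the genes, from 0.12 or less in standard error for Myh6 and Rcan1 to 1.16 for Nppa.

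**Figure D1:**
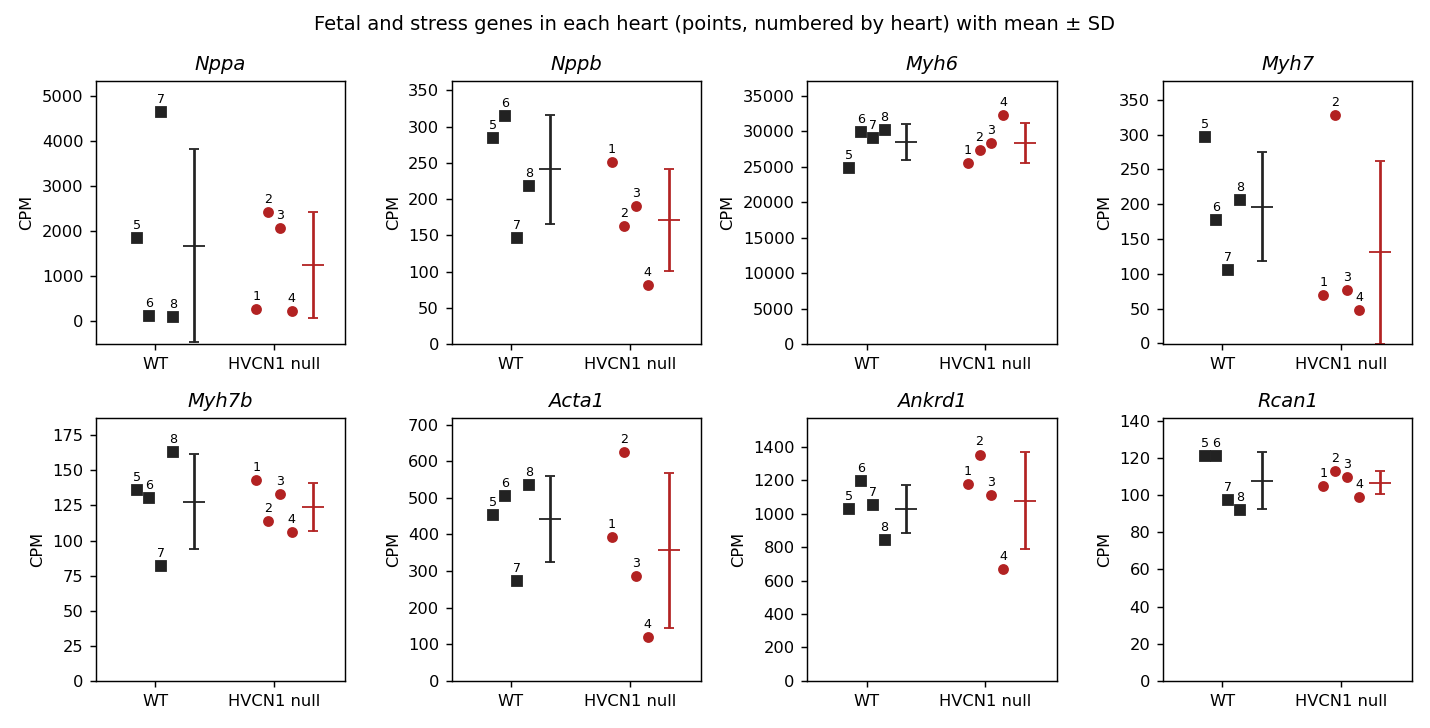
CPM of each gene in the 4 WT hearts (black squares, 5 to 8) and the 4 HVCN1 null hearts (red circles, 1 to 4), with the group mean and SD beside the points. Nppa spanned 83.1 to 4629 CPM with high and low hearts in both groups, while Myh6 and Rcan1 lay close together.

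Nppa (ENSMUSG00000041616, chr4:148000722-148002079, plus strand) encodes atrial natriuretic peptide, a hormone that lowers blood volume. Its level was 259, 2423, 2073 and 224 CPM in null hearts 1 to 4, against 1850, 119, 4629 and 83.1 CPM in the WT hearts numbered 5 to 8. Hearts 2 and 3 of the null group and 5 and 7 of the WT group were high, the other 4 were low, and the highest heart was 55.7-fold above the lowest. edgeR gave a log2 fold change of -0.42 (SE 1.16, 95% interval -3.00 to 2.15, edgeR quasi-likelihood adjusted p = 0.957, n = 4 and 4). An effect of several fold in either direction could therefore not be told from none.

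Nppb (ENSMUSG00000029019, chr4:147985788-147987205, plus strand) encodes B-type natriuretic peptide, which ventricles release under wall stress. It was at 251, 163, 191 and 81.2 CPM in HVCN1 null hearts and at 284, 315, 147 and 218 CPM in WT hearts. The lowest value belonged to null heart 4 and the highest to WT heart 6, and null hearts 1, 2 and 3 lay inside the WT range. The fold change, on the log2 scale, was -0.49 (SE 0.32, 95% interval -1.20 to 0.21, edgeR adjusted p = 0.683). Nppb did not share the split of the hearts seen for Nppa, since WT heart 7, with the most Nppa, had the least Nppb of the WT hearts.

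Myh6 (ENSMUSG00000040752, chr14:54941921-54966927, minus strand), the main motor of the adult mouse heart, was, with Rcan1, among the most even of the 8 genes. It stood at 25500, 27389, 28377 and 32270 CPM in HVCN1 null hearts and 24793, 29865, 29100 and 30242 CPM in WT hearts, a spread of 1.30-fold from lowest to highest. The log2 estimate was -0.01 (SE 0.12, 95% interval -0.28 to 0.27, edgeR adjusted p = 0.997).

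Myh7 (ENSMUSG00000053093, chr14:54970684-54994626, minus strand), the fetal beta-myosin, was at 69.8, 328, 77.3 and 48.3 CPM in HVCN1 null hearts and at 296, 178, 106 and 206 CPM in WT hearts. Null hearts 1, 3 and 4 were all below the lowest WT heart, while null heart 2 had the highest level of all 8. The log2 fold change was -0.59 (SE 0.55, 95% interval -1.82 to 0.64, edgeR adjusted p = 0.826). The result turned on null heart 2: without it the log2 fold change was -1.60 with an adjusted p of 0.0494 in the same edgeR test, just inside the threshold, and no other heart left out gave a call. Null heart 2 was not singled out by its labels.

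The Myh7 count carries uncertainty from its neighbours. Of the distinct 50-base words in annotated Myh7 transcripts, 15.6% also occur in Myh6, which was far more abundant, and how the authors treated reads that fit more than 1 gene is not given in the sources used here. The antisense gene Mhrt (chr14:54968678-54974349, plus strand) shares 484 exon bases with Myh7, the antisense genes Gm31251 and Gm29015 share 523 and 142, and the strand setting of the counting is likewise not given. These 3 antisense genes were not analysed here, and their part in the Myh7 count was not tested. Nppa also overlaps an annotated antisense gene, Gm13054, over 532 exon bases, Myh6 overlaps Gm49130 over 114 and Myh7b meets Trpc4ap over 37. Acta1 shares 2.02% of its 50-base words with other genes, and the other 5 genes share none.

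Myh7b (ENSMUSG00000074652, chr2:155611212-155634307, plus strand) encodes a further slow myosin, whose transcript is the source of miR-499. It was at 143, 114, 133 and 106 CPM in HVCN1 null hearts and 136, 130, 81.8 and 163 CPM in WT hearts, where WT hearts 7 and 8 marked the lowest and the highest level. edgeR gave a log2 fold change of -0.04 (SE 0.19, 95% interval -0.46 to 0.38, edgeR adjusted p = 0.980).

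Acta1 (ENSMUSG00000031972, chr8:123891769-123894751, minus strand) encodes skeletal alpha-actin, which accompanies cardiac actin in the fetal and the loaded heart. It was at 392, 625, 287 and 121 CPM in HVCN1 null hearts and at 452, 506, 274 and 536 CPM in WT hearts. As for Myh7, null heart 2 was the highest and null heart 4 the lowest of the 8, and the other hearts lay between them. The fold change, on the log2 scale, was -0.31 (SE 0.40, 95% interval -1.20 to 0.58, edgeR adjusted p = 0.886).

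Ankrd1 (ENSMUSG00000024803, chr19:36111961-36120099, minus strand) encodes a protein of the sarcomere and nucleus that is induced by stretch. It was at 1176, 1355, 1113 and 669 CPM in HVCN1 null hearts and at 1030, 1195, 1054 and 841 CPM in WT hearts, with null heart 4 again the lowest and null heart 2 the highest. The log2 estimate was 0.07 (SE 0.20, 95% interval -0.38 to 0.51, edgeR adjusted p = 0.964).

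Rcan1 (ENSMUSG00000022951, chr16:92391953-92470867, minus strand) encodes an inhibitor of the phosphatase calcineurin, and a short form of it is a common readout of calcineurin and NFAT activity. Counts per gene do not separate that form. Rcan1 was at 105, 113, 110 and 99.0 CPM in HVCN1 null hearts and at 121, 121, 97.3 and 92.0 CPM in WT hearts, so the null hearts lay within the WT range. The log2 fold change was -0.02 (SE 0.11, 95% interval -0.26 to 0.23, edgeR adjusted p = 0.987).

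**Figure D2:**
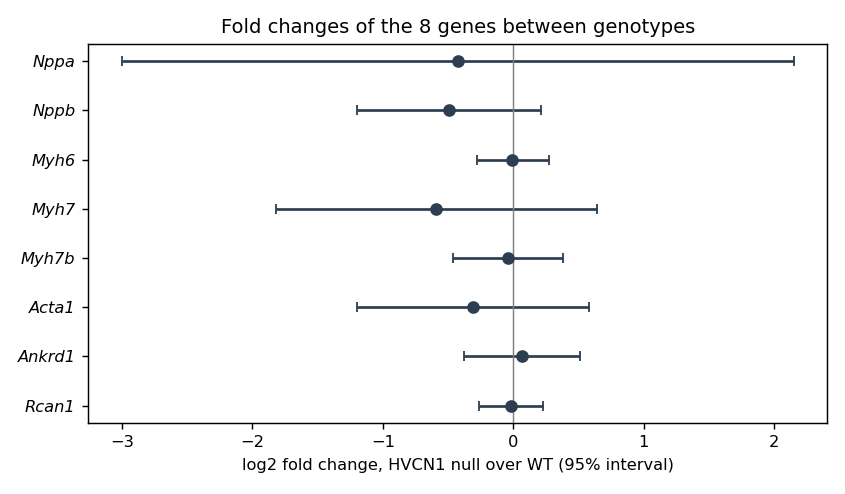
Log2 fold change of each gene, HVCN1 null over WT, from the edgeR quasi-likelihood fit (points) with its 95% interval (bars), 4 hearts per group. Every interval includes 0, the widest being that of Nppa (-3.00 to 2.15) and the narrowest that of Rcan1 (-0.26 to 0.23).

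Set per kilobase of annotated exon, the 8 genes stood in nearly the same order in both groups. In WT hearts the mean level in CPM per kilobase was 4237 ± 374 for Myh6, 1931 ± 2471 for Nppa, 357 ± 50.5 for Ankrd1, 309 ± 95.5 for Nppb and 288 ± 76.2 for Acta1 (SD, n = 4). Then came a step down to Rcan1 at 35.0 ± 5.0, Myh7 at 22.8 ± 9.13 and Myh7b at 19.3 ± 5.11. Between Acta1 and Rcan1 the ranges of the WT hearts did not meet, and each other pair of neighbours in this order overlapped. In HVCN1 null hearts Myh6 was at 4220 ± 424 and Myh7 at 15.2 ± 15.3 CPM per kilobase, the lowest mean of the 8, just under Myh7b at 18.7 ± 2.57 and with overlap between them. The length used is that of all annotated exons of a gene joined, which for Myh7 (8616 bases) is longer than for Myh6 (6726 bases).

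The balance of the 2 myosins was expressed as the ratio of Myh7 to Myh6 per heart, on the CPM per kilobase scale. The ratio was 0.214%, 0.935%, 0.213% and 0.117% in null hearts 1 to 4, against 0.933%, 0.465%, 0.284% and 0.533% in the WT hearts numbered 5 to 8. On this scale Myh7 was under 1% of Myh6 in every heart. The ratio was highest in null heart 2 and WT heart 5 and lowest in null heart 4. Dividing by the longer joined length of Myh7 (8616 against 6726 bases) lowers every ratio below that of CPM alone. By CPM alone Myh7 was above 1% of Myh6 in null heart 2 (328 against 27389 CPM) and WT heart 5 (296 against 24793 CPM). The mean ratio was 0.370% ± 0.380 in HVCN1 null hearts and 0.554% ± 0.273 in WT hearts (SD, n = 4). On the log2 scale the means were -8.56 ± 1.28 and -7.63 ± 0.70, a difference of -0.93, which did not pass a two-sided exact permutation test (p = 0.257, adjusted over 3 tests 0.471, smallest possible p 0.0286, n = 4 and 4). Without null heart 2 the difference was -1.54 (exact permutation p = 0.0571), and without null heart 4 it was -0.54. The ratio moved almost entirely with Myh7, as Myh6 varied little.

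Atrial transcripts differed widely between the hearts. An atrial score was taken as the mean log2 CPM of 7 atrial genes, none of them among the 8 (Sln, Myl4, Myl7, Sbk2, Stard10, Dkk3 and Kcnj3), since Bmp10, the eighth on the list, did not pass the filter. The score was 3.81, 7.51, 7.26 and 4.44 in HVCN1 null hearts and 7.23, 1.75, 8.46 and 1.29 in WT hearts. The largest gap between neighbouring scores, 2.78, set 4 hearts above (null 2 and 3, WT 5 and 7) and 4 below, 2 of each group on each side. Myl7, the atrial myosin light chain, was at 17.0, 632, 609 and 33.6 CPM in HVCN1 null hearts and at 578, 0.618, 1185 and 0.169 CPM in WT hearts. WT hearts 6 and 8 thus had very little Myl7, while another gene of the score, Kcnj3, was at 59.4 and 85.6 CPM there, close to the 60.3 and 77.1 CPM of null hearts 1 and 4. The mean score was 5.76 ± 1.90 in HVCN1 null and 4.68 ± 3.69 in WT hearts (difference 1.07, exact permutation p = 0.600, n = 4 and 4). Leaving out WT heart 8 turned this difference to -0.06.

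Nppa followed the atrial score closely and the myosin ratio did not. Over the 8 hearts Pearson's r between log2 CPM of Nppa and the score was 0.985 (exact permutation p = 0.000174, adjusted over 9 relations 0.00156) and Spearman's rho was 0.976 (exact permutation p = 0.000397, adjusted 0.00357). Without WT hearts 6 and 8, the 2 farthest from the median score, r was 0.989 (exact permutation p = 0.00972). For the log2 ratio of Myh7 to Myh6, r was 0.0991 (exact permutation p = 0.808, adjusted 0.883) and rho 0.0476 (exact permutation p = 0.935, adjusted 0.935), and without the same 2 hearts r was 0.563 (exact permutation p = 0.215). Among the other 7 genes the strongest relation to the score was that of Myh7b (r = -0.610, exact permutation p = 0.102, adjusted 0.460; rho = -0.667, exact permutation p = 0.0831, adjusted 0.374), which did not pass. Without WT hearts 6 and 8 it was -0.442 (exact permutation p = 0.372).

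**Figure D3:**
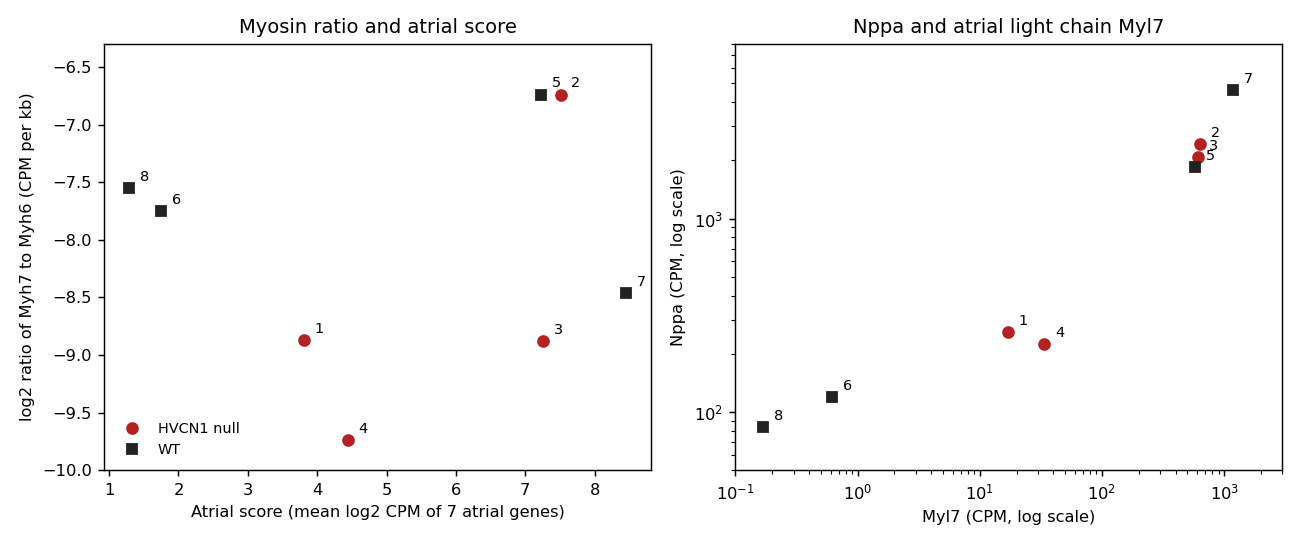
Left, log2 ratio of Myh7 to Myh6 against the atrial score; right, Nppa against Myl7 in CPM on log axes; each point is 1 heart, numbered, with HVCN1 null in red circles and WT in black squares. The ratio spreads without order along the score (r = 0.0991), while Nppa and Myl7 rise together from WT heart 8 (83.1 and 0.169 CPM) to WT heart 7 (4629 and 1185 CPM).

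In the 4 hearts with the higher atrial score, the ratio of Nppa to Myl7 was nearly constant, at 3.83 and 3.40 in null hearts 2 and 3 and at 3.20 and 3.90 in WT hearts 5 and 7. In the hearts with the lower score it was 15.3 and 6.66 in null hearts 1 and 4 and 193 and 492 in WT hearts 6 and 8. Even with Myl7 under 1 CPM, WT hearts 6 and 8 kept 119 and 83.1 CPM of Nppa. The log2 level of Nppa relative to the score was 3.77 ± 0.35 in HVCN1 null and 4.39 ± 0.84 in WT hearts (SD, n = 4), a difference of -0.62 (exact permutation p = 0.314, adjusted over 3 tests 0.471). With the score taken as the log2 of the summed CPM in place of the mean of logs, this difference was 0.28, so its direction was not settled.

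Compared within each side of the atrial split, which was chosen after seeing the data and left 2 hearts against 2 with no test, the gap between the genotypes in the myosin ratio was wider in the hearts with the lower atrial score. The log2 ratio of Myh7 to Myh6 was -8.87 and -9.74 in null hearts 1 and 4 against -7.75 and -7.55 in WT hearts 6 and 8, a difference of -1.66. In the hearts with the higher score the difference was -0.21, with 1 high and 1 low ratio in each group. In the hearts with the lower score the log2 CPM difference was -1.72 for Myh7, -1.26 for Acta1, -0.88 for Nppb and 1.28 for Nppa. In those with the higher score it was -0.15 for Myh7, 0.27 for Acta1, -0.21 for Nppb and -0.39 for Nppa, so Acta1 and Nppa differed in the other direction there. Of the hearts with the lower score, the 2 null hearts also had more Myl7 (17.0 and 33.6 CPM) than the 2 WT hearts (0.618 and 0.169 CPM). Whether the 2 sides differ was not tested. A permutation of the genotypes within the sides gave p = 0.278 for the pooled ratio difference of -0.93 (36 assignments, exact), and with the score as a covariate the difference was -1.02 (SE 0.80).

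Relations between the 8 genes across hearts were also taken pair by pair. Of the 28 pairs, 18 had a positive r and the others a negative one, 2 had an exact permutation p under 0.05 and 0 passed after adjustment. Pairs of other genes were not counted, so no background share stands beside these counts. The closest pair was Myh7 and Acta1, the fetal myosin and the fetal actin (r = 0.834, exact permutation p = 0.00456, adjusted 0.128; rho = 0.833, exact permutation p = 0.0154, adjusted 0.431). Without null hearts 2 and 4, r was 0.694 (exact permutation p = 0.147). Nppb and Acta1 came next (r = 0.779, exact permutation p = 0.0281, adjusted 0.393; rho = 0.50, exact permutation p = 0.216, adjusted 0.599), and without null heart 4 and WT heart 6 their r was 0.241 (exact permutation p = 0.607). The genes share the library and its scaling.

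**Figure D4:**
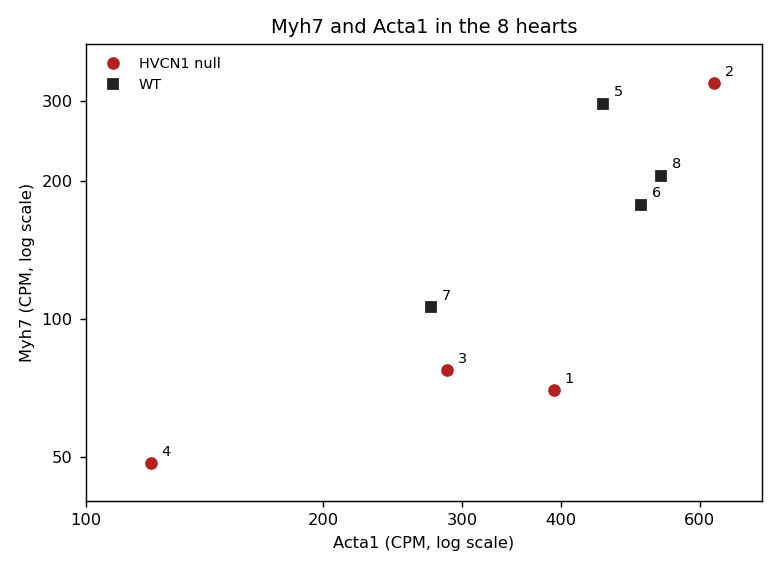
Myh7 against Acta1 in CPM on log axes, 1 point per heart, numbered, with HVCN1 null in red circles and WT in black squares. Null heart 4 (121 and 48.3 CPM) and null heart 2 (625 and 328 CPM) form the ends of the relation (r = 0.834).

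Genes with the most similar pattern to each of the 8 over the 8 hearts were found among 12914 genes by Pearson's r of log2 CPM, given as a description. Nppa was most like Gas6 (0.993), Dkk3 (0.993) and Rxfp1 (0.991), of which Dkk3 is also in the atrial score. Gas6 moved with it over a small range only, from 150 CPM in WT heart 8 to 200 CPM in WT heart 7. Both Myh7 and the myosin ratio were most like Nlrc3 (0.975 and 0.971), Tubb3 (0.945 and 0.952) and Rpusd1 (0.912 and 0.928), all at low levels. Acta1 was most like Tmem144 (0.975), Ifi204 (0.942) and 9330159F19Rik (0.933). For Nppb the nearest were Cd40 (0.973), Unc119b (0.950) and 9230112J17Rik (0.946), and for Myh6 they were Rabl3 (0.967), Atg3 (0.949) and Agpat3 (0.941). Among the nearest to Myh7b were Ankrd37 (0.943) and Ier3 (0.942). Ankrd1 was nearest to Krt80 (0.960), Cnn1 (0.944) and Ezh1 (0.930), and Rcan1 to B4galt4 (0.889), Mt2 (0.881) and Il4ra (0.872).

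The pathways around the 8 genes were followed in lists of genes. Of the genes that process natriuretic peptides or respond to them, such as the receptors Npr1, Npr2 and Npr3 and the activating protease Corin, 11 of 12 were tested and none was called (median log2 fold change 0.00). The largest estimates were those of the proprotein convertase Pcsk6 (-0.41, SE 0.12, adjusted p = 0.194) and the phosphodiesterase Pde2a (-0.50, SE 0.33, adjusted p = 0.691). Pde2a was near the floor, at means of 0.499 CPM in HVCN1 null and 0.710 CPM in WT hearts. Of the genes that govern the choice of myosin through thyroid hormone or microRNAs, 8 of 14 were tested and none was called (median 0.04). Mhrt and the microRNA genes Mir208a, Mir208b and Mir499 had no entry in the deposited counts, so the result is silent on them. The receptors Thra and Thrb gave 0.11 (SE 0.10) and 0.05 (SE 0.18), and the largest estimates belonged to Dio2, which activates thyroid hormone (-1.12, SE 0.59, adjusted p = 0.553), and to the transcription factor Sox6 (0.16, SE 0.14, adjusted p = 0.791). Dio2 was low, at means of 1.49 CPM in HVCN1 null and 3.22 CPM in WT hearts. Of the calcineurin and NFAT genes 18 of 18 were tested and none was called (median -0.02), with the largest estimates for Chp1 (-0.32, SE 0.08, adjusted p = 0.115) and Rcan2 (-0.29, SE 0.11, adjusted p = 0.347).

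Among other fetal and skeletal isoforms of the contractile apparatus, 14 of 17 were tested, 1 rose and none fell, with 10 estimates below 0 (median -0.35 beside -0.01 over all genes tested). The gene that rose was Acta2, the smooth muscle actin that early heart muscle also uses, at 357, 150, 336 and 201 CPM in HVCN1 null hearts and 108, 107, 125 and 79.5 CPM in WT hearts, with no overlap (log2 fold change 1.32, SE 0.26, edgeR adjusted p = 0.0466). Acta2 was also the only call among 6 smooth muscle markers, all with estimates above 0 (median 0.31), with Smtn next (0.32, SE 0.11, adjusted p = 0.260). The summed CPM of these markers was 534 to 834 in HVCN1 null and 405 to 493 in WT hearts. Acta2 is itself part of that sum and of the median, so the sum is no separate measure of smooth muscle. The part of smooth muscle cells in the Acta2 result was not tested. Actc1, the cardiac actin and the main partner of Acta1, was at 6225, 6078, 6400 and 6727 CPM in HVCN1 null hearts and 8449, 10536, 7640 and 9501 CPM in WT hearts, with no overlap. It was not called (-0.51, SE 0.12, edgeR adjusted p = 0.105), but with library sizes not scaled Actc1 was called (-0.46, edgeR adjusted p = 0.0375) and Acta2 was not (1.34, edgeR adjusted p = 0.0577). The other large estimate of the isoform list was Myl1, a light chain of fast skeletal muscle, at 4.56, 32.1, 12.8 and 3.90 CPM in HVCN1 null hearts and 51.4, 30.7, 126 and 26.4 CPM in WT hearts (-2.13, SE 0.69, adjusted p = 0.247). Fast skeletal muscle markers were near the floor, with 4 of 9 tested, none called and a summed level of 1.38 to 3.50 CPM in HVCN1 null and 2.46 to 5.82 CPM in WT hearts (median -0.47, with Tnnt3 at -1.16 and Tnni2 at -0.89).

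Of the relatives of Ankrd1 and the genes of stretch sensing at the Z disc, 20 of 20 were tested, 1 fell and none rose (median -0.17). The gene that fell was Ccn1, a secreted matrix protein and a target of the YAP and TEAD factors, at 53.5, 45.3, 50 and 48.6 CPM in HVCN1 null hearts and 91.0, 82.7, 63.9 and 77.0 CPM in WT hearts, with no overlap (log2 fold change -0.67, SE 0.11, edgeR adjusted p = 0.0205). Its relative Ccn2, another target of the same factors, had an estimate in the other direction that did not pass (0.74, SE 0.34, adjusted p = 0.459), and Ankrd2, the skeletal relative of Ankrd1, was near the floor at means of 0.187 and 0.582 CPM (-1.57, SE 0.43, adjusted p = 0.156). Of the secreted and induced stress markers 22 of 24 were tested, 1 fell and none rose (median -0.07). Gdf15, a stress hormone, had the largest estimate of the list (1.01, SE 0.31, adjusted p = 0.211).

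The calls of Acta2, Ccn1 and Lrrc10 lay near the threshold. Over 16 alternative fits, the call of Acta2 was kept in 7, that of Ccn1 in 10 and that of Lrrc10, the only call among 6 ventricular markers (0.69, SE 0.12, edgeR adjusted p = 0.0244), in 11, all with the same sign. Ccn1 and Lrrc10 lost the call only in fits that left out a heart. Acta2 lost it in such fits and also with library sizes not scaled, with a filter of CPM above 1 in at least 4 hearts and with voom. The highest adjusted p was 0.149 for Acta2 (without WT heart 6), 0.0807 for Ccn1 (without WT heart 6) and 0.0858 for Lrrc10 (without null heart 3). Lrrc10, a heart-specific protein of the Z disc region, was at 146, 175, 166 and 144 CPM in HVCN1 null hearts and 89.7, 113, 83.1 and 107 CPM in WT hearts. The other 5 ventricular markers were not called (median of the list 0.04, with Irx5 at -0.29).

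**Figure D5:**
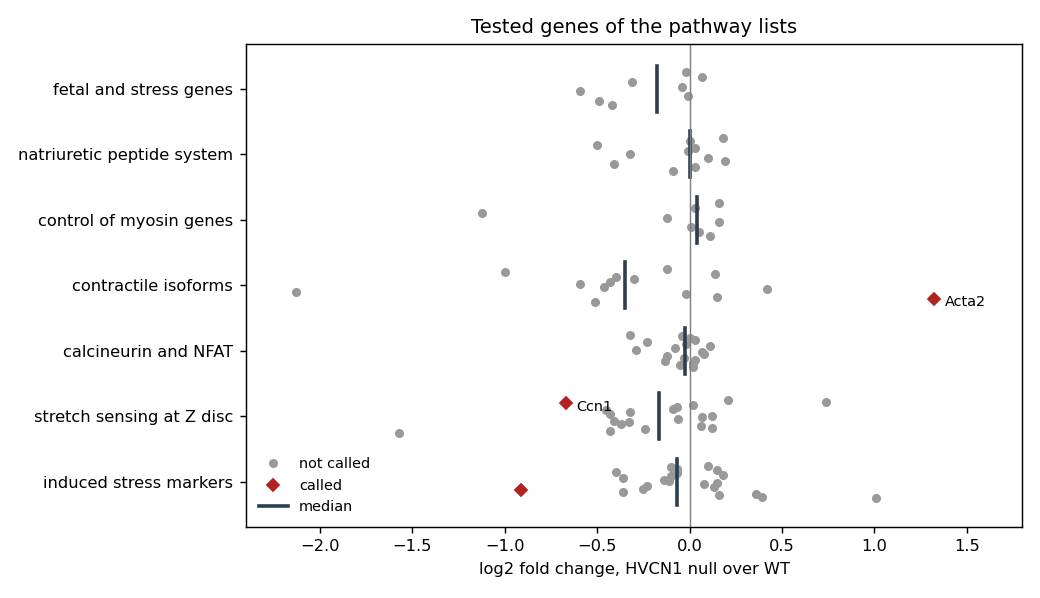
Log2 fold changes, HVCN1 null over WT, of the tested genes of each list (points), with called genes as red diamonds and the list median as a vertical bar. The fetal and stress genes hold no call, and Acta2 (1.32) and Ccn1 (-0.67) are the labelled calls of the pathway lists.

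Markers of other cell types were set beside these results, and none of the lists that follow held a call. All 7 tested atrial markers had estimates below 0 (median -0.45, with Sln at -0.72 and Sbk2 at -0.71). The summed level of all 8 listed, with the untested Bmp10, was 143 to 2464 CPM in HVCN1 null and 97.8 to 4384 CPM in WT hearts. The atrial score, a mean of logs, differed in the other direction (1.07), and its lowest values were those of WT hearts 6 and 8. All 7 erythroid markers were also below 0 (median -1.02, with Hbb-bt at -1.64), at 1292 to 8394 against 3020 to 15234 CPM, as were all 7 macrophage markers (median -0.31, with Adgre1 at -0.52 and C1qa at -0.32), at 194 to 256 against 219 to 311 CPM. In Hbb-bt, WT heart 5 (1508 CPM) stood far above WT hearts 6, 7 and 8 (269, 359 and 428 CPM). Null heart 4 (484 CPM) also lay above those, and null hearts 1, 2 and 3 lay below them (76.4, 68.6 and 194 CPM). All 4 tested adipocyte markers lay below 0 too (median -0.66, with Plin1 at -0.81 and Adipoq at -0.77). The 6 listed, tested or not, summed to 308 to 424 CPM in HVCN1 null against 400 to 549 CPM in WT hearts. Fabp4, at 296 to 549 CPM over the 8 hearts, made up nearly all of that sum. WT heart 7 stood far above the other WT hearts in Adipoq (7.80 CPM against 0.152, 0.0309 and 0.135), Plin1 (11.4 against 1.19, 0.0927 and 0.371) and Cidec (7.11 against 1.42, 0.0309 and 0.135). In Adipoq the WT hearts other than 7 lay below every null heart (lowest 0.180 CPM), so its negative estimate rested on WT heart 7. WT heart 7 was also the highest of all 8 hearts in each of the 7 atrial markers. Medians were 0.01 for cardiomyocyte markers (Mybpc3 0.27, Ryr2 -0.16), -0.15 for fibroblast markers (Pdgfra -0.30, Lum -0.22), -0.04 for endothelial markers (Kdr -0.21, Cldn5 0.18) and 0.34 for conduction system markers (Cpne5 0.88, Hcn4 -0.50). The part of these cell types in the levels of the 8 genes was not tested, apart from the atrial score above. The counts of estimates below 0 in the atrial, erythroid, macrophage and adipocyte lists were the same with RLE scaling and without scaling.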

How the data were processed

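RNA from 8 mouse hearts was sequenced with 1 library per heart. The authors captured poly-A RNA, aligned paired reads with STAR and counted them with featureCounts. The deposited table holds the authors' raw counts for each gene and heart, not normalized. The submitters' notes name mm10 and GRCm38, while the paper's text names a human genome. The identifiers are mouse Ensembl identifiers, and 38872 of 39056 (99.5%) matched GENCODE M21 without their version, which gave symbols, positions and exon lengths. RefSeq sequences matched all 8 genes for promoters.

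CPM and log2 CPM (prior count 2) were computed with TMM-scaled library sizes in edgeR 4.0.16 (R 4.3.3). Genes kept by filterByExpr (14796) were tested with the quasi-likelihood test and Benjamini-Hochberg adjustment over all of them, after the scripts were tested on simulated data. For single values per heart, an exact permutation test over the 70 assignments was used, two-sided. P-values set a difference or a relation against the variation between these hearts. DESeq2 1.42.0 and voom (limma 3.58.1) were alternatives.

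The 8 genes and the lists were chosen with earlier results of these data known. Named genes are the 8, called list genes, the 2 largest estimates per list, and the 3 genes nearest to each pattern with a mean CPM of at least 1. Thra, Thrb, Actc1, Myl7, Bmp10 and Npr3 were named after their values were seen. Values of Kcnj3, Cidec and Fabp4 are likewise given outside this rule. The atrial split, the scaling alternatives for lists and all alternatives for list genes were added after seeing the data. A few genes that the rule names are not reported here, though the counts and medians of lists include them. Depth was 25851255 to 38874640 counts per heart.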

Additional observations from a re-analysis of the deposited data

How the results depend on the processing

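No paired analysis was made because the labels give no pairing of HVCN1 null with WT hearts. Of 128 fold changes of the 8 genes under 16 alternatives each, 103 kept their sign and side of the threshold, 24 turned sign and 1 passed it (Myh7 without null heart 2). Of the sign changes, 14 came from leaving out a heart and 10 from the other alternatives. The latter were, for Myh6, 0.01 with RLE scaling, 0.03 with library sizes not scaled, 0.00 with no filter, 0.01 with DESeq2 and 0.01 with the atrial score as a covariate; for Myh7b, 0.02 with library sizes not scaled and 0.05 with that covariate; for Rcan1, 0.02 with library sizes not scaled; and for Nppa, 0.51 with voom and 0.36 with the atrial split as a term. Log2 Nppa relative to the score was 0.28 with the summed CPM. The causes were not tested. Leaving out each heart in turn, the log2 fold change ran from -0.97 to 0.86 for Nppa, -0.73 to -0.26 for Nppb, -0.07 to 0.04 for Myh6, -1.60 to -0.31 for Myh7, -0.20 to 0.10 for Myh7b, -0.73 to -0.02 for Acta1, -0.06 to 0.24 for Ankrd1 and -0.08 to 0.05 for Rcan1. The difference in log2 myosin ratio ran from -1.54 to -0.54, that of the atrial score from -0.06 to 2.33 and that of Nppa relative to the score from -0.88 to -0.37. Calls among the 8 genes ran from 0 to 1, and DEGs over all genes from 71 (without WT heart 6) to 152, with 99 and 103 without null hearts 1 and 3 and 92 and 104 without WT hearts 5 and 8, against 169 with all hearts and 466 with DESeq2. With 4 hearts a group, the standard errors were as large as 1.16 for Nppa and 0.55 for Myh7. The lowest count of any of the 8 genes in a heart was 1708.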

Other observations

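Bmp10 and Npr3 did not follow the split of the hearts by Nppa. Both were highest in the 2 hearts with the most Nppa, null heart 2 (2423 CPM) and WT heart 7 (4629 CPM). Bmp10, a growth factor that in the adult is made mainly in the right atrium, was at 418 CPM in HVCN1 null heart 2 and 574 CPM in WT heart 7, and at 0.180, 0.0380, 3.08, 0.152, 0.185 and 0.203 CPM in null hearts 1, 3 and 4 and WT hearts 5, 6 and 8. Npr3, the natriuretic peptide clearance receptor, was highest in the same 2 hearts, at 47.8 and 61.0 CPM, against 13.6 to 22.6 CPM in the other 6. Null heart 3 and WT heart 5 therefore had a high atrial score with almost no Bmp10. Both genes were named after their values were seen, and no test was made. Myh7 did not follow this pattern, since null heart 2 had the highest Myh7 level (328 CPM) and WT heart 7 the lowest of the WT hearts (106 CPM).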
